A study of Mus musculus with 18 samples.

Results

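RNA levels of 37 chromatin remodeler genes outside the CHD family were compared between Chd8-/- and WT regulatory T cells (Tregs). The genes encode subunits of the BAF, ISWI and INO80 families and the single-protein remodelers Atrx and Hells. They are a list of gene names, and all 37 were found among the 35865 gene names used. The RNA came from YFP+ CD4+ T cells sorted from the spleen, and each of 2 WT and 2 Chd8-/- mice gave 1 library. Chd8-/- libraries carried the label CHD8Flox/Flox with Foxp3YFP-Cre, which deletes Chd8 where the Foxp3 locus drives the Cre fusion. WT libraries carried a label that also names floxed Chd8, with Foxp3YFP-Cre/+, and were taken as WT from their titles and the methods of the study. The labels give poly IC injection and spleen for every sample, and the methods give sex-matched littermates aged 5 to 7 weeks. All 4 libraries therefore came from mice with a Cre allele in Foxp3 and the same listed injection.

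ATP-dependent remodelers use the energy of ATP to slide, evict or exchange nucleosomes, and each is built around an ATPase of the SNF2 family. BAF complexes, the mammalian SWI/SNF family, open chromatin at promoters and enhancers. ISWI complexes space nucleosomes, and the INO80 family moves nucleosomes and exchanges histone variants such as H2A.Z. CHD8 is a remodeler of a related family, and the BAF ATPase BRG1 is known to support the suppressive function of Tregs.

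Chd8 itself was listed at 14.9 and 11.4 TPM (a read count scaled to gene length and then to the total of the library) in Chd8-/- replicates 1 and 2, and at 24.7 and 27.6 TPM in WT replicates 1 and 2. Chd8-/- libraries thus held less Chd8 RNA than either WT library, with RNA left in both. Summed TPM of 7 Treg markers, Foxp3 among them, ranged from 3342 to 4006, so the labelled cell type was present in each library. Chd8-/- replicate 2 stood apart from the other libraries in markers of other cells. Its 5 erythroid genes summed to 1544 TPM against 8.7 TPM in Chd8-/- replicate 1 and 257.3 and 258.0 TPM in WT, and its 7 myeloid genes to 1682 TPM against 49.9, 302.2 and 367.4 TPM. In Chd8-/- replicate 2 the 6 B cell genes summed to 140.7 TPM against 30.5 to 45.9 TPM in the other libraries. Cd79a and Ms4a1 gave 73.7 and 53.0 TPM of this sum, while Cd79b, at 8.9 TPM, was lower than in any other library. The 6 CD8 and NK cell genes gave 56.8 to 93.4 TPM in all of the libraries. Chd8-/- replicate 1 had 2 B cell, 3 myeloid, 2 CD8 and NK cell and 2 erythroid markers at 0. A male and a female mouse per genotype are named in the legend of the study, but Xist was listed at 500.2 to 843.3 TPM and Ddx3y, Kdm5d, Uty and Eif2s3y at 0 in all 4 libraries. The part of these differences in the values below was not tested, except that results were computed with each library left out.

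As a group, the remodeler genes lay close to the rest of the transcriptome. Of the 37 genes, 36 reached 1 TPM in at least 2 libraries and were tested among 15240 genes with limma on log2(TPM + 1). The exception was Smarca1, an ISWI ATPase listed at 0 in every library. The median log2 fold change (Chd8-/- minus WT) of the 36 genes was -0.16, and that of all genes tested was -0.15. Of the 36, 13 were higher (36.1%, against 38.5% of all genes tested) and 23 lower. None of the 36 passed an adjusted p of 0.05 (0.0% of all genes tested did, with limma), and their smallest adjusted p was 0.424. At an unadjusted p below 0.05, 3 of 36 were called (8.33%), against 10.2% of all genes tested. Of these, 2 were higher (Hells and Ruvbl1, against 3.9% of all genes tested) and 1 was lower (Bcl7b, against 6.3%). A log2 fold change of 1 or more was seen for none (5.12% of all genes tested) and of -1 or less for Smarcd1 and Bcl7b (11.6% of all genes tested). These limma counts depended on single libraries. Leaving out WT replicate 1 or 2 left none of the 36 at an unadjusted p below 0.05, against 3.67% and 3.85% of all genes tested. Without Chd8-/- replicate 2, 3 were called (8.33%, against 9.88%), Hells reached 1 (6.49% of all genes tested) and none reached -1 (9.49%). Without Chd8-/- replicate 1, 5 were called (13.9%, against 20.9%), none reached 1 (9.0% of all genes tested) and 5 reached -1 (20.4%). In bulk RNA, a smaller share of cells that express a gene and less RNA per cell cannot be told apart.

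The genotypes did not overlap for 20 of 36 genes (55.6%, against 42.6% of all genes tested). Chd8-/- values were the higher ones for 6 of 36 genes (16.7%, against 14.8% of all genes tested) and the lower ones for 14 (38.9%, against 27.8%). Across all genes the values in Chd8-/- were shifted downward, and the split changed once this was removed. After quantile normalization, which gives each library the same distribution of values, the counts became 10 above (27.8%, against 21.0% of all genes tested) and 8 below (22.2%, against 21.3%). The medians then were 0.03 for the remodeler genes and 0.00 for all genes. Leaving out 1 library also moved the split. Without Chd8-/- replicate 2, 9 genes were above (25.0%, against 32.5% of all genes tested) and 17 below (47.2%, against 38.7%), and without Chd8-/- replicate 1, 11 were above (30.6%, against 28.0%) and 19 below (52.8%, against 52.7%). Without WT replicate 1, 6 were above (16.7%, against 22.0%) and 22 below (61.1%, against 43.2%), and without WT replicate 2, 14 were above (38.9%, against 26.5%) and 14 below (38.9%, against 38.0%). Log2 fold changes of 27 of 36 genes lay between -0.5 and 0.5, and the share of all genes tested in that range was not computed. Replicates of the remodeler genes were closer than those of genes at large. Their median SD on the log2 scale was 0.192 in Chd8-/- and 0.122 in WT, against 0.368 and 0.228 over all genes tested. The SD on this scale varies with level, and the 2 sets of genes were not matched for level. Chd8-/- replicates lay further apart than WT replicates for 17 of the 36 genes. By complex, medians were -0.12 for 22 BAF genes, -0.09 for 6 ISWI genes and -0.19 for 6 genes of the INO80 family.

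**Figure D1:**
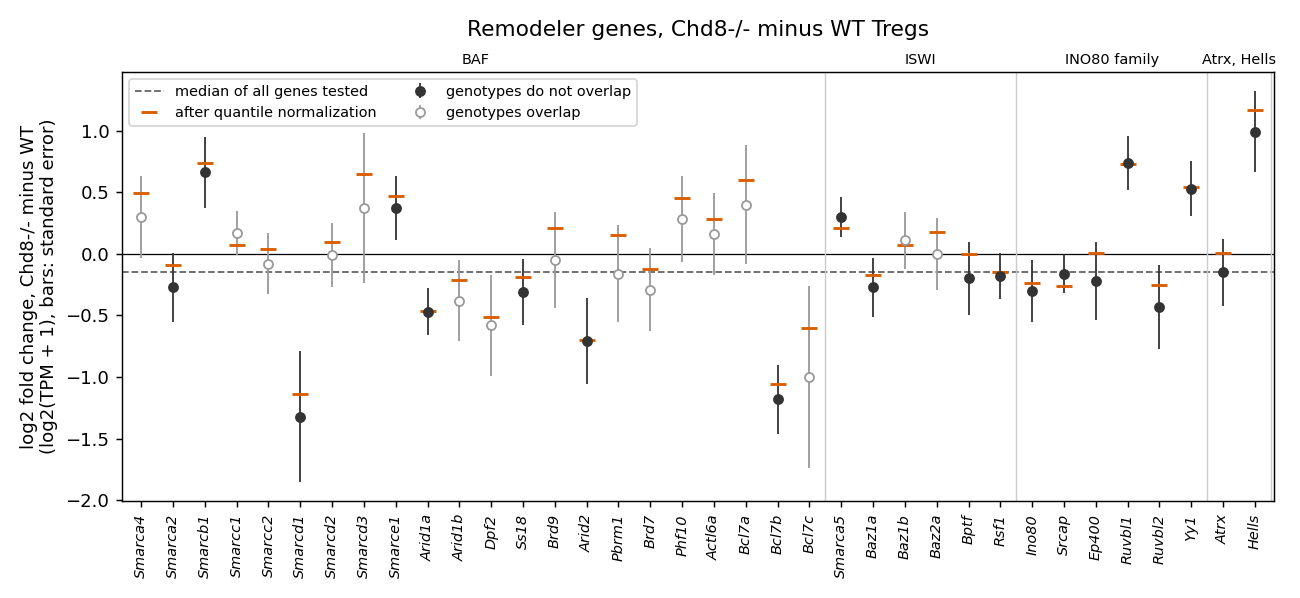
Log2 fold change (Chd8-/- minus WT, log2(TPM + 1)) of the 36 tested remodeler genes, grouped by complex, with bars for the limma standard error. Filled points mark genes whose genotypes do not overlap, the dashed line is the median of all genes tested (-0.15), and orange marks are the values after quantile normalization; the points run from -1.32 for Smarcd1 to 0.99 for Hells.

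Among genes whose genotypes did not overlap, Hells and Ruvbl1 had the 2 highest log2 fold changes, and Smarcd1 and Bcl7b the 2 lowest. The 250 bases before a RefSeq transcription start of each (GRCm38.p6, 5′ to 3′ on the strand of the gene, all plus) are shown to give the DNA from which these transcripts start, with the E2F letters TTTCCCGC in capitals where they occur. The stretches are chr19:38930740-38930989 for Hells, chr6:88465159-88465408 for Ruvbl1, chr15:99702037-99702286 for Smarcd1 and chr5:135168122-135168371 for Bcl7b.
Hells: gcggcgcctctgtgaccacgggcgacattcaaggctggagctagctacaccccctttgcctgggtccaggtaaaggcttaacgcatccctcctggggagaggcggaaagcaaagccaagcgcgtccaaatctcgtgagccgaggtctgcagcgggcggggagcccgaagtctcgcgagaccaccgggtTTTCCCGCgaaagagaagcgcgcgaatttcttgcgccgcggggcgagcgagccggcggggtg
Ruvbl1: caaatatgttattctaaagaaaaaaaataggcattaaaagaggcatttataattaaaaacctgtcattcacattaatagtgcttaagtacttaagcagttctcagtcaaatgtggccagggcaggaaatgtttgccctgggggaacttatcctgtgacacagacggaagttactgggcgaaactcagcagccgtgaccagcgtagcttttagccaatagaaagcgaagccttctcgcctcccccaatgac
Smarcd1: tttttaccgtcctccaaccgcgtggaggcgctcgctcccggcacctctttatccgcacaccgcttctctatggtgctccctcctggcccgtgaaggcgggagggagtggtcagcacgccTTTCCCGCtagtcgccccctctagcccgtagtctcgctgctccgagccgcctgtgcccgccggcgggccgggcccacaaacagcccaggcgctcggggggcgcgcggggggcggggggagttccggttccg
Bcl7b: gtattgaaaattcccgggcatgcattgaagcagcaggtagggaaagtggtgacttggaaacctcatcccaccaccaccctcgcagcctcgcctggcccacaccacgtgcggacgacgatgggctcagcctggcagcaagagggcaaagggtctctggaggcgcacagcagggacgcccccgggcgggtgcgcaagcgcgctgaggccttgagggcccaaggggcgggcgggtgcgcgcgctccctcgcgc
E2F factors drive genes of the cell cycle and DNA replication. In these stretches the E2F letters begin 62 bases before the start used for Hells, the higher gene, and 131 bases before that used for Smarcd1, the lower gene. The start used for Hells lies inside its RefSeq exon span, which begins further upstream. Ruvbl1 and Bcl7b held none of the E2F letters. GC content of the windows, which add the 50 bases after each start, was 45.7% at Ruvbl1, the lowest of the 31 remodeler genes with a window, and 65.7% to 71.3% at the other three.

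Hells, a SNF2-family helicase that supports DNA methylation and is known to be expressed in dividing cells, was the most elevated of the genes in Chd8-/- Tregs. It spans chr19:38930262-38970470 and stood at 22.6 and 21.1 TPM in the Chd8-/- libraries, as compared with 8.5 and 12.9 TPM in the WT libraries. The Chd8-/- values were close together and exceeded the WT values. The means were 21.9 ± 1.06 and 10.7 ± 3.11 TPM (SD, n = 2 each). The log2 fold change was 0.99 ± 0.33 (SE), 1.99-fold, with a 95% interval from 0.09 to 1.89, an unadjusted limma p of 0.0368 and an adjusted p of 0.470. It stayed between 0.72 and 1.27 when any 1 library was left out. Most markers of cycling cells were also higher. Of 12 such genes, 9 were higher in both Chd8-/- libraries than in both WT libraries (14.8% of all genes tested were), and none was lower in both (27.8%). Mki67, Mcm5 and Ccnb1 overlapped between genotypes, with log2 fold changes of 0.26, -0.34 and -0.48. Summed TPM of the 12 genes was 1264 and 1337 in Chd8-/- against 946.9 and 1013 in WT Tregs. Pcna gave 570.8 and 523.6 TPM of the Chd8-/- sums and 420.7 and 397.3 TPM of the WT sums. The part of these markers in the Hells value was not tested. Atrx, which deposits histone H3.3 with Daxx in heterochromatin, stood at 19.3 and 19.0 TPM in the Chd8-/- libraries, as compared with 19.5 and 23.5 TPM in the WT libraries. Its log2 fold change of -0.15 ± 0.27 lay at the median of all genes, and became 0.01 after quantile normalization. Atrx shares 5.63% of its exon bases with Gm14853 on the same strand, so its level is uncertain to that extent.

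In the INO80 family, the 2 AAA+ helicase subunits lay on opposite sides of WT. Ruvbl1, which with Ruvbl2 forms a ring that helps assemble INO80, SRCAP and TIP60 complexes, stood at 169.5 and 135.0 TPM in the Chd8-/- libraries, as compared with 83.8 and 97.0 TPM in the WT libraries (chr6:88465409-88497566). Every Chd8-/- value exceeded every WT value. This gave a log2 fold change of 0.74 ± 0.22 (1.67-fold), with a 95% interval from 0.16 to 1.32 and an adjusted p of 0.447. Ruvbl2, its partner, stood at 11.2 and 12.7 TPM in the Chd8-/- libraries, as compared with 13.5 and 19.9 TPM in the WT libraries, so that its genotypes separated the other way. Its log2 fold change was -0.43 ± 0.34 (adjusted p = 0.700). Exons of Gys1 on the other strand cover 9.46% of Ruvbl2, and no source used here states whether reads were counted by strand.

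Yy1, a zinc finger transcription factor that is also an INO80 subunit, stood at 109.1 and 87.7 TPM in the Chd8-/- libraries, as compared with 64.4 and 70.2 TPM in the WT libraries (chr12:108792945-108820148). Again both Chd8-/- libraries were higher. Its log2 fold change was 0.53 ± 0.22, with a 95% interval from -0.05 to 1.11 and an adjusted p of 0.510. The 3 ATPases of the family lay slightly on the low side. Srcap, which exchanges H2A for H2A.Z, had the highest level of all 37 genes in WT Tregs (345.8 ± 17.0 TPM, n = 2) and was listed at 299.5 and 317.1 TPM in Chd8-/- against 333.8 and 357.8 TPM in WT Tregs. Ino80 stood at 34.0 and 45.1 TPM in the Chd8-/- libraries, as compared with 51.0 and 46.0 TPM in the WT libraries, and Ep400, the ATPase of the TIP60 complex, at 8.2 and 7.6 against 8.8 and 10.0 TPM. All 3 had genotypes that did not overlap, by narrow margins. Their log2 fold changes were -0.16 ± 0.16, -0.30 ± 0.25 and -0.22 ± 0.32, with adjusted p from 0.718 to 0.836, and that of Ep400 turned to 0.01 after quantile normalization. The genotypes of all 6 INO80 family genes did not overlap, against 42.6% of all genes tested, with Ruvbl1 and Yy1 above (14.8%) and the other 4 below (27.8%), and the log2 fold changes of the 3 ATPases lay near the all-gene median of -0.15.

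**Figure D2:**
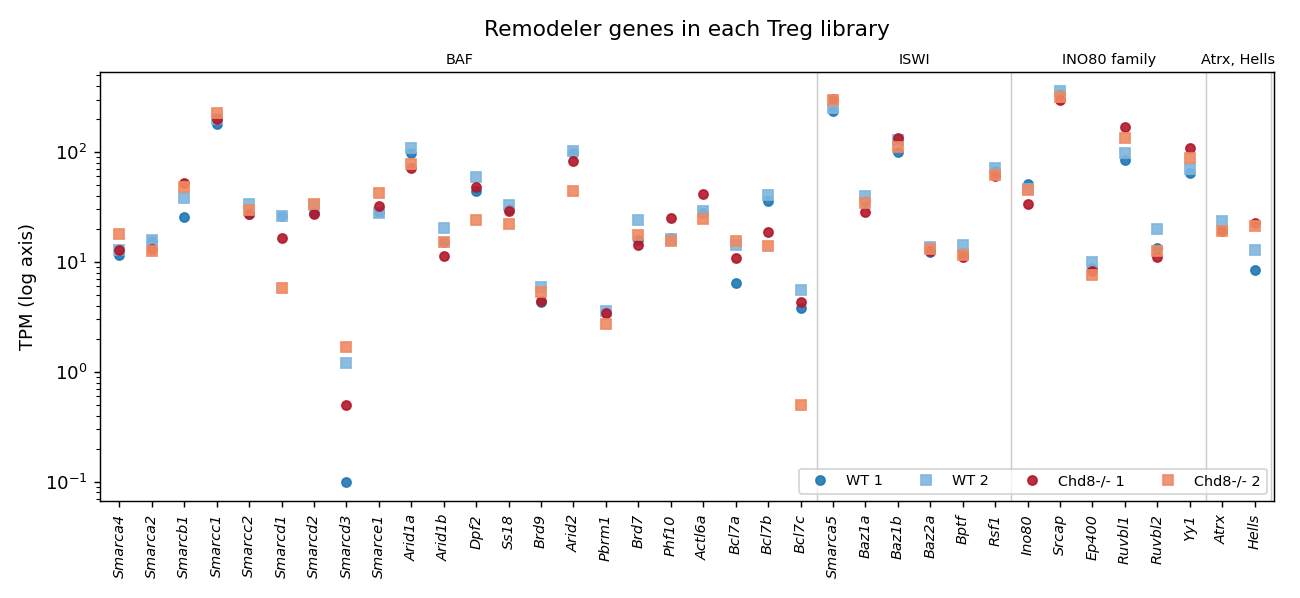
TPM (log axis) of the 36 tested remodeler genes in each of the 4 Treg libraries, 1 point per library, with blue for WT and red or orange for Chd8-/-. Levels run from below 1 TPM for Smarcd3 to over 300 for Srcap, the 2 Chd8-/- points of Hells, Ruvbl1, Yy1 and Smarcb1 sit above both WT points, and those of Smarcd1, Bcl7b and Arid2 sit below.

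Of the BAF ATPases, Smarca4 (BRG1) stood at 12.8 and 18 TPM in the Chd8-/- libraries, as compared with 11.5 and 12.8 TPM in the WT libraries, and Smarca2 (BRM) at 13.2 and 12.5 TPM against 15.5 and 15.8 TPM. Smarca4 values touched at 12.8 TPM, while both Smarca2 values were lower in Chd8-/- libraries. The log2 fold change of Smarca4 was 0.30 ± 0.33 (adjusted p = 0.778) and that of Smarca2 was -0.27 ± 0.28 (adjusted p = 0.773). The 95% intervals, from -0.58 to 1.18 and from -1.02 to 0.49, leave room for changes of either sign. Smarca4 spans chr9:21616106-21704230 and Smarca2 chr19:26605073-26778321.

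Among core subunits of BAF, Smarcb1 and Smarcd1 differed most between genotypes, in opposite directions. Smarcb1 (SNF5), which binds the nucleosome acidic patch, stood at 52.5 and 47.9 TPM in the Chd8-/- libraries, as compared with 25.7 and 38.1 TPM in the WT libraries (chr10:75896769-75921614). Both Chd8-/- libraries were above both WT libraries, which themselves lay well apart. The log2 fold change was 0.66 ± 0.29, with a 95% interval from -0.11 to 1.43 and an adjusted p of 0.536, and ranged from 0.39 without WT replicate 1 to 0.94 without WT replicate 2.

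Smarcd1 (BAF60A), a subunit that links BAF to transcription factors, stood at 16.4 and 5.8 TPM in the Chd8-/- libraries, as compared with 26.2 and 26.3 TPM in the WT libraries (chr15:99702287-99713995). The WT libraries were nearly equal, and the Chd8-/- libraries were lower and far from each other. Its log2 fold change was -1.32 ± 0.53, with a 95% interval from -2.76 to 0.11 and an adjusted p of 0.510, and 1 library set its size. Without Chd8-/- replicate 2, the library with the high erythroid and myeloid sums, it was -0.65, and without Chd8-/- replicate 1 it was -2.0. The antisense gene Gm34939 covers 10.8% of the exon bases of Smarcd1. Its paralog Smarcd2 was at 27.5 and 33.4 TPM in the Chd8-/- libraries, as compared with 27.8 and 33.3 TPM in the WT libraries, a log2 fold change of -0.01 ± 0.26, and Smarcd3 was at or below 1.7 TPM in all libraries.

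The remaining core subunits had smaller differences. Smarcc1 (BAF155), a scaffold on which the core assembles, was among the most abundant members at 178.0 to 226.5 TPM over all libraries, with overlapping genotypes and a log2 fold change of 0.17 ± 0.18. Its paralog Smarcc2 (BAF170) was lower at 27.1 to 33.8 TPM, with a log2 fold change of -0.08 ± 0.25. Smarce1 (BAF57), an HMG-box subunit, stood at 32.1 and 42.6 TPM in the Chd8-/- libraries, as compared with 28.7 and 27.9 TPM in the WT libraries. Its genotypes did not overlap, with a log2 fold change of 0.37 ± 0.26 and an adjusted p of 0.667.

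ARID subunits, which decide the form of the complex, were all on the low side in Chd8-/- Tregs. So were most genes tested, with 38.5% above 0 and an all-gene median of -0.15. After quantile normalization, Arid1a, Arid1b and Arid2 were at -0.46, -0.21 and -0.70. Arid1a, the large DNA-binding subunit of canonical BAF, stood at 71.2 and 77.5 TPM in the Chd8-/- libraries, as compared with 97.8 and 108.5 TPM in the WT libraries (chr4:133679008-133756769). Both genotypes were tight and did not overlap. The log2 fold change was -0.47 ± 0.19 (adjusted p = 0.518), with a 95% interval from -0.98 to 0.05 and values from -0.54 to -0.39 when any 1 library was left out. Arid1b, its alternative, stood at 11.4 and 15.3 TPM in the Chd8-/- libraries, as compared with 15.1 and 20.3 TPM in the WT libraries, with overlapping genotypes and a log2 fold change of -0.38 ± 0.33. Arid2, which defines the PBAF form, stood at 82.8 and 44.6 TPM in the Chd8-/- libraries, as compared with 97.7 and 102.5 TPM in the WT libraries (chr15:96287522-96405463). Here both Chd8-/- libraries were lower, replicate 2 much more so. Its log2 fold change was -0.71 ± 0.35 (adjusted p = 0.572), with a 95% interval from -1.66 to 0.24, and it was -0.27 without Chd8-/- replicate 2 and -1.15 without Chd8-/- replicate 1.

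Other subunits that mark 1 form of BAF had log2 fold changes from -0.58 to 0.28. The PBAF subunits Pbrm1, Brd7 and Phf10, which carry bromodomains or PHD fingers, had log2 fold changes of -0.16, -0.29 and 0.28, all with overlapping genotypes. Pbrm1 was low, at 2.7 to 3.6 TPM. Brd9, of the non-canonical GBAF form, was at 4.3 to 5.9 TPM with a log2 fold change of -0.05. Dpf2, a PHD finger subunit of canonical BAF, was at 48.0 and 24.1 TPM in Chd8-/- against 44.4 and 59.6 TPM in WT Tregs, with overlapping genotypes and a log2 fold change of -0.58 ± 0.41 (adjusted p = 0.675). That of Dpf2 was -0.10 without Chd8-/- replicate 2 and -1.06 without Chd8-/- replicate 1. Ss18, a subunit of canonical BAF and GBAF, had lower values in both Chd8-/- libraries (29.3 and 22.0 against 30.4 and 33.2 TPM), with a log2 fold change of -0.31 ± 0.27.

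In the module that joins the ATPase, Bcl7b had the largest separation. Its level was 18.6 and 13.9 TPM in the Chd8-/- libraries, as compared with 35.5 and 40.3 TPM in the WT libraries (chr5:135168372-135181852). The genotypes were well separated, with means of 16.3 ± 3.32 and 37.9 ± 3.39 TPM (SD, n = 2 each). This gave a log2 fold change of -1.18 ± 0.28, or 2.27-fold lower, with a 95% interval from -1.94 to -0.43, an unadjusted limma p of 0.0114 and an adjusted p of 0.424, the smallest of the 36 genes. Leaving out any 1 library kept it between -1.38 and -0.99. Its relative Bcl7a was at 10.9 and 15.6 TPM in Chd8-/- against 6.5 and 14.2 TPM in WT Tregs, and Bcl7c at 4.3 and 0.5 against 3.8 and 5.6 TPM. Both overlapped between genotypes, and the log2 fold change of Bcl7c, -1.0 ± 0.74 and just short of the threshold before rounding, was -0.09 without Chd8-/- replicate 2. Actl6a, the actin-related subunit, was at 24.8 to 41.2 TPM with a log2 fold change of 0.16.

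ISWI genes lay between -0.27 and 0.30 on the log2 scale. Smarca5 (SNF2H), the ISWI ATPase listed above 0 in these cells, was at 305.4 and 299.1 TPM in the Chd8-/- libraries, as compared with 238.5 and 251.2 TPM in the WT libraries (chr8:80699943-80739459). Replicates were close to one another and the Chd8-/- values were higher. The log2 fold change was 0.30 ± 0.16 (adjusted p = 0.582), with a 95% interval from -0.12 to 0.72. The accessory subunits that pair with it to form distinct complexes were near the all-gene median. Rsf1 was at 60.9 and 61.8 TPM in Chd8-/- against 67.4 and 72.2 TPM in WT Tregs, Baz1a (ACF1) at 28.2 and 34.5 against 36.2 and 39.6 TPM, and Bptf, of the NURF complex, at 11.1 and 11.5 against 12 and 14.3 TPM. These 3 were lower in both Chd8-/- libraries, with log2 fold changes of -0.18, -0.27 and -0.20. Baz1b (WSTF) at 99.2 to 133.7 TPM and Baz2a (TIP5) at 12.3 to 13.6 TPM overlapped between genotypes.

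Many remodeler subunits are alternatives for 1 slot or partners in 1 ring, and a ratio within a library does not depend on how that library was scaled, apart from the pseudocount of 1 TPM. Of 8 pairs compared, 5 had ratios that did not overlap between genotypes, and 3 differed by 0.5 or more on the log2 scale. The 5 include Smarca5 to Smarca1, where Smarca1 is listed at 0. The share of other gene pairs without overlap was not computed, and among single genes tested it was 42.6%. The Ruvbl1 to Ruvbl2 log2 ratio was 3.80 and 3.31 in Chd8-/- and 2.55 and 2.23 in WT Tregs. All 4 values placed Ruvbl1 above Ruvbl2, and the distance was larger in both Chd8-/- libraries. The difference was 1.17 (2.25-fold), between 0.92 and 1.42 with any 1 library left out. The Smarcd1 to Smarcd2 log2 ratio was -0.71 and -2.34 in Chd8-/- and -0.08 and -0.33 in WT Tregs, a difference of -1.32 that was -0.51 without Chd8-/- replicate 2. Smarcd1 thus made up 37.4% and 14.8% of the pair's summed TPM in Chd8-/- Tregs, and 48.5% and 44.1% in WT Tregs. The Smarca4 to Smarca2 log2 ratio was -0.04 and 0.49 in Chd8-/- and -0.40 and -0.28 in WT Tregs, a difference of 0.57 (1.48-fold), between 0.30 and 0.84 with any 1 library left out. Smarca4 made up 49.2% and 59.0% of the 2 ATPases in Chd8-/- Tregs and 42.6% and 44.8% in WT Tregs.

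For each of these ratios the two-sided exact permutation p was 0.33, the smallest that 2 against 2 libraries allow, and 0.533 after adjustment over the 8 pairs. Smarcc1 to Smarcc2 differed by 0.25 with no overlap. For Smarca5 to Smarca1 the ratio only restates Smarca5, since Smarca1 is listed at 0. Arid1a to Arid1b differed by -0.08, Arid2 to Arid1a by -0.24 and Bcl7b to Bcl7c by -0.19, all with overlapping genotypes.

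**Figure D3:**
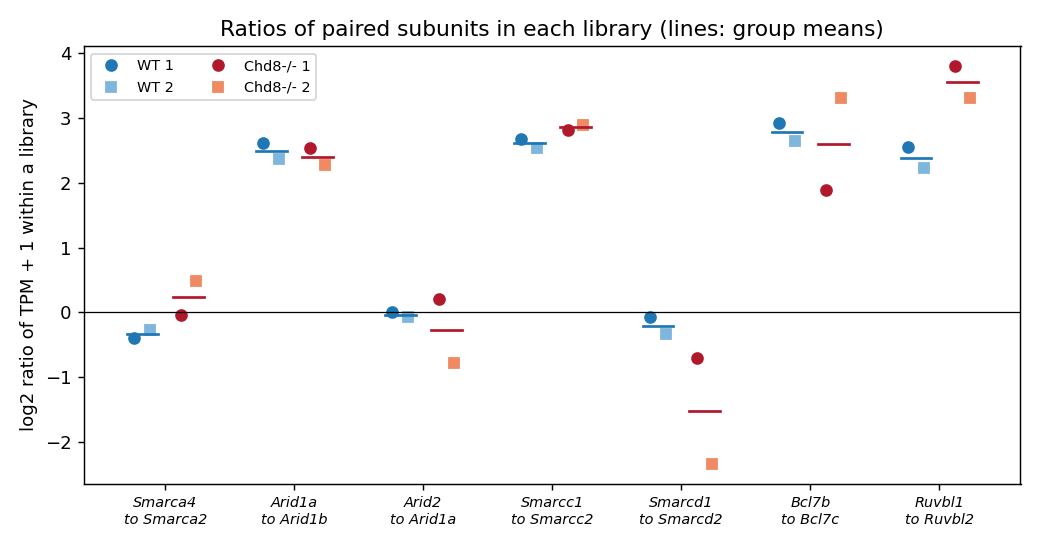
Log2 ratio of TPM + 1 within each library for 7 subunit pairs (Smarca5 to Smarca1 is left out, as Smarca1 is at 0), with points for libraries and lines for group means. Ruvbl1 to Ruvbl2, Smarca4 to Smarca2 and Smarcc1 to Smarcc2 lie higher in both Chd8-/- libraries, and Smarcd1 to Smarcd2 lies lower.

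Promoter windows from 250 bases before to 50 bases after a RefSeq start were found for 31 of the 37 genes. They were GC-rich, with a median GC of 68.0% over their windows against 52.7% over all 32851 windows of the table. Both strands were searched for E2F letters (TTTCCCGC, TTTCGCGC, TTTGCCGC or TTTGGCGC), YY1 letters (AANATGGC), the NRF1 consensus of 10 letters and ETS letters (CCGGAAGT), and no matches overlapped. E2F letters were in windows of 4 genes (Arid1a, Brd7, Hells and Smarcd1), or 12.9%, against 2.26% of all windows. YY1 letters were in windows of 6 genes (Arid1a, Arid1b, Atrx, Baz1b, Bptf and Smarcd1), or 19.4%, against 6.05% of all windows. The 4 genes with E2F letters had log2 fold changes from -1.32 to 0.99, and the 6 with YY1 letters from -1.32 to 0.11. The NRF1 consensus and ETS letters were in 0.971% and 3.89% of all windows and in none of these genes. A match of letters is a description only, the share of genes counts any of the windows of a gene, and the part of GC content in these shares was not tested.

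The differences were also set against gene length. Across the 36 genes, Spearman's rho between log2 fold change and exonic length was -0.237 and Pearson's r with log2 length was -0.143, against a rho of -0.0546 over 13891 genes. The 18 genes longer than 5950 bases of exon had a median log2 fold change of -0.19 and the 18 shorter ones 0.08. Over all genes the same split gave -0.23 and -0.12. These genes share the same 4 libraries and are not independent replicates.

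A further 41 genes for subunits of the same complexes were examined, of which 37 were tested. Their median log2 fold change was -0.16, 12 were higher and 25 lower, and none passed an adjusted p of 0.05 with limma, while 2 had an unadjusted p below 0.05 (5.41%, against 10.2% of all genes tested). These 2 were Rbbp7, a histone chaperone of NURF (log2 fold change 0.62, adjusted p = 0.469), and Uchl5, a deubiquitinase of INO80 (0.90, adjusted p = 0.480). The largest difference was that of Znhit1, a subunit that SRCAP needs for H2A.Z exchange, at 5.4 and 23.9 TPM in the Chd8-/- libraries, as compared with 0.8 and 4.5 TPM in the WT libraries (log2 fold change 2.0 ± 0.93, adjusted p = 0.555). Both Chd8-/- values were higher, but each genotype spread widely. On the low side were Mcrs1 of INO80 (-1.14, adjusted p = 0.569) and Kat5 and Meaf6 of the TIP60 acetyltransferase complex (-1.08 and -1.07, adjusted p = 0.503 and 0.580). Without Chd8-/- replicate 2, the library with the high erythroid and myeloid sums, Mcrs1 was at -0.52, Kat5 at -0.71 and Meaf6 at -0.38. Without Chd8-/- replicate 1 they were at -1.75, -1.45 and -1.76. Genotypes did not overlap for 21 of the 37 (56.8%, against 42.6% of all genes tested), with 6 above (16.2%, against 14.8%) and 15 below (40.5%, against 27.8%). After quantile normalization, 8 were above and 9 below, against 21.0% and 21.3% of all genes tested.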

How the data were processed

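RNA-seq of YFP+ splenic Tregs from 2 WT and 2 Chd8-/- mice was used. Per the methods, the authors trimmed reads (Trim Galore 0.4.2, cutadapt 1.9.1), aligned them to mm10 with STAR 2.6.1e, removed duplicates with sambamba and counted reads on RefSeq genes with featureCounts 1.6.2. The deposited values are TPM rounded to 0.1. TPM keeps no read depth, so the depth per sample is unknown and no counting error is given. TPM was above 0 for 19540 to 20984 names per library. Of 35869 listed names, 4 repeated entries were left out.

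Genes with at least 1 TPM in 2 or more libraries were compared on log2(TPM + 1) with limma 3.58.1 in R 4.3.3 (two-sided, moderated with a mean-variance trend, p-values adjusted by Benjamini-Hochberg over all genes tested). The limma steps were tested on simulated data with planted changes larger than that of any remodeler gene in the main fit. That test does not show how well changes of the size seen here are detected. A fold change is on this scale, which understates that of low genes. Ratios of subunits were compared with exact permutation tests in Python 3.11.15. The limma p-values set a difference against the spread between single mice, moderated by the spread of other genes at a similar level. The exact permutation p only ranks the observed split of the libraries among all possible splits. Named genes were the ATPases, the paired subunits, tested members with genotypes that did not overlap and a log2 fold change of at least 0.5 in size, and up to 5 further subunits with a mean of at least 5 TPM. The members, gene lists and tests were chosen with earlier results of these data known. Members outside this rule, and Rbbp7, were named after their values were seen. Positions and promoter windows came from RefSeq on GRCm38.p6, the assembly of mm10. Alternatives were other pseudocounts and filters, quantile normalization, a replicate block, no trend, each library left out and, chosen after seeing the data, the all-gene median set to 0. ATAC-seq and CHIP-seq peaks at these genes were planned but are not analysed here, since those peaks are on mm39 and no annotation of that build was used.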

Additional observations from a re-analysis of the deposited data

How the results depend on the processing

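No remodeler gene and no further subunit passed an adjusted p of 0.05 in limma under any alternative. Of 311 values of 26 named genes under the alternatives, 302 kept their sign. The other filters, the replicate block and the fit without trend leave a log2 fold change as it is. Values under those settings could not turn, so this count overstates how stable the signs were. Among the 36 remodeler genes, the count at an unadjusted p below 0.05 (3) became 5 without a filter, 5 after quantile normalization (13.9%, against 10.3% of all genes tested) and 1 with a replicate block, and 0 to 5 with 1 library left out (5 without Chd8-/- replicate 1, or 13.9% against 20.9% of all genes tested, and 0 without either WT replicate, against 3.67% and 3.85%, where the lone sample is assumed to vary like the rest). The count at a log2 fold change of 1 or more in size (2) became 5 at a pseudocount of 0.1 TPM and 1 to 5 with 1 library left out (5 without Chd8-/- replicate 1, 1 without Chd8-/- replicate 2). The median (-0.16) was 0.03 after quantile normalization, -0.01 with the all-gene median set to 0, and -0.23 to -0.01 with 1 library left out. Quantile normalization gave 10 genes above and 8 below WT.

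For the further subunits, the median was -0.03 after quantile normalization, -0.01 with the all-gene median set to 0 and -0.27 to -0.12 with 1 library left out. The count at 1 or more in size was 4 of 37, against 5.12% of all genes tested at 1 or more and 11.6% at -1 or less. It was 2 after quantile normalization (7.52% and 8.08% of all genes tested). With 1 library left out it ran from 2 to 9, with 9 without Chd8-/- replicate 1 (9.0% and 20.4% of all genes tested). It was 1 at a pseudocount of 5 TPM and 2 with the median set to 0, where the shares of all genes were not computed. Those at an unadjusted limma p below 0.05 (2, or 5.41% against 10.2% of all genes tested) were 1 with the replicate block and 1 without trend. The shares of all genes under these 2 settings were not computed, and the count also moved with 1 library left out. After quantile normalization, 9 lay below and 8 above WT, against 21.3% and 21.0% of all genes tested. Log2 fold changes that turned were small: Ep400 0.01, Atrx 0.01, Smarcc2 0.04 and Smarcd2 0.10 after quantile normalization, Smarcc2 0.07 and Smarcd2 0.14 with the median set to 0, and Smarcc2 from -0.23 to 0.07 and Smarcd2 from -0.14 to 0.13 with 1 library left out. Bcl7b to Bcl7c was 0.31 at a pseudocount of 0.1 TPM, and with 1 library left out ran from -0.90 to 0.53 (0.53 without Chd8-/- replicate 1), Arid1a to Arid1b from -0.22 to 0.05 (0.05 without Chd8-/- replicate 2, 0.04 without WT replicate 1) and Arid2 to Arid1a from -0.74 to 0.26 (0.26 without Chd8-/- replicate 2). The cause was not tested.

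Same-numbered libraries did not deviate together (correlation across genes -0.0117), and no label ties them, so the main fit did not pair them. A correlation across genes cannot show that the mice were unpaired. The smallest difference detectable with 2 mice per genotype and unknown depth was not computed. Each printed interval gives the range of changes that the values of that gene leave room for. Windows and scalings for ATAC-seq and CHIP-seq peaks were not run, since those peaks are not analysed here.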
